A study of Mus musculus with 6 samples.

Results

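The 39 Hox genes of the mouse were examined in RNA-seq libraries of the cerebellum. Members were all symbols made of Hox, a cluster letter a to d and a number, which gave 39 of the 24537 genes listed for each library. They lie in 4 clusters, with 11 Hoxa genes on chromosome 6, 10 Hoxb genes on chromosome 11 (96194316 to 96368256, mm10), 9 Hoxc genes on chromosome 15 (102921103 to 103036852) and 9 Hoxd genes on chromosome 2 (74668310 to 74765142).

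Hox genes encode homeodomain transcription factors that give cells a position along the head-to-tail axis. Within a cluster, genes with low paralogue numbers are expressed farthest forward, into the hindbrain, and genes with high numbers only in the trunk and tail. The cerebellum grows from the front end of the hindbrain, ahead of the Hox domain, while the medulla and much of the pons behind it lie within that domain and keep low-numbered Hox RNA in the adult. The question was therefore how much Hox RNA each library held, and from which end of the clusters.

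The tested libraries were 3 from male mice, 6 weeks old, heterozygous for a null allele of Reln (HET, strain label Orl/BalbC), and the others were 3 from wild-type males of the same age (WT, strain label C57BL/6). Reln encodes reelin, a secreted protein that guides neuronal positioning. Genotype and strain label go together in every library and cannot be told apart. Whether each library is a separate animal is not stated in the labels, so p-values measure the spread between these libraries.

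Reln itself stood at 0.531, 0.509 and 0.580 FPKM in HET 1, 2 and 3, against 0.834, 0.771 and 0.940 FPKM in WT 1, 2 and 3, where FPKM scales fragments by gene length and library size. All 3 HET libraries lay below all 3 WT libraries. Low FPKM values came in steps of 1 read, which gave depths of about 22890000 to 27100000 reads in HET and 26870000 to 28610000 in WT, and whole reads for each Hox gene. The steps matched division by the length of the whole gene with its introns. This was checked in single-transcript genes whose span exceeds their exons more than 3 times. By span, 74.2% to 77.2% of their low values per library were whole reads (within 0.02 of a read). By summed exons the share was 0.260% to 0.560%. The values were picked as few reads by span, so the exon share was bound to be low and is no fair rival. Depth was itself fitted with spans, which favours the span share. With the span as divisor, FPKM of a Hox gene with long introns, such as Hoxa3, is low for its reads, and members are compared below by reads.

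Hox RNA was close to the limit of detection in all 6 libraries. Of the 39 members, 19 had no read in any library, which allows each of them up to 0.0189 RPM (reads per 1000000 reads of depth; 3 reads over all libraries; intervals and such limits cover counting error only). The other 20 members had 94 reads together. Of the 234 values, 1 per gene and library, 181 were 0, 33 were 1 read, 11 were 2 reads and 9 were more. Of these 9, 6 were over 3 reads. In all, 48.7% of Hox genes were at 0 in every library, against 20.3% of all genes. No member reached a mean of 0.1 FPKM, a level that 49.9% of all genes reached.

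Hox reads numbered 10, 13 and 8 in HET 1, 2 and 3, against 40, 11 and 12 in WT 1, 2 and 3. WT 1 stood apart, and the other WT libraries lay within the range of the HET libraries. Scaled to depth, the Hox genes together had 0.398, 0.480 and 0.350 in HET and 1.41, 0.409 and 0.419 RPM in WT. The exact 95% Poisson interval of WT 1 was 1.01 to 1.92 RPM, while the highest upper bound among the other 5 libraries was 0.820, in HET 2. Members with overlapping spans may count the same read more than once, which these intervals do not allow for. Over the 28 members that overlap no other member, WT 1 had 0.986 RPM (0.655 to 1.425). That interval overlapped those of HET 1 and HET 2, whose upper bounds were 0.680 and 0.726. WT 1 was 3.42 times the mean of the other 5 libraries and held 42.6% of all Hox reads. The group means were 0.409 ± 0.066 RPM in HET and 0.746 ± 0.574 in WT (SD, n = 3 each), a difference of -0.337 that was smaller than the spread within WT. Without WT 1 the difference was -0.0054 RPM. In bulk tissue, fewer cells of a type and less RNA per cell cannot be told apart.

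**Figure D1:**
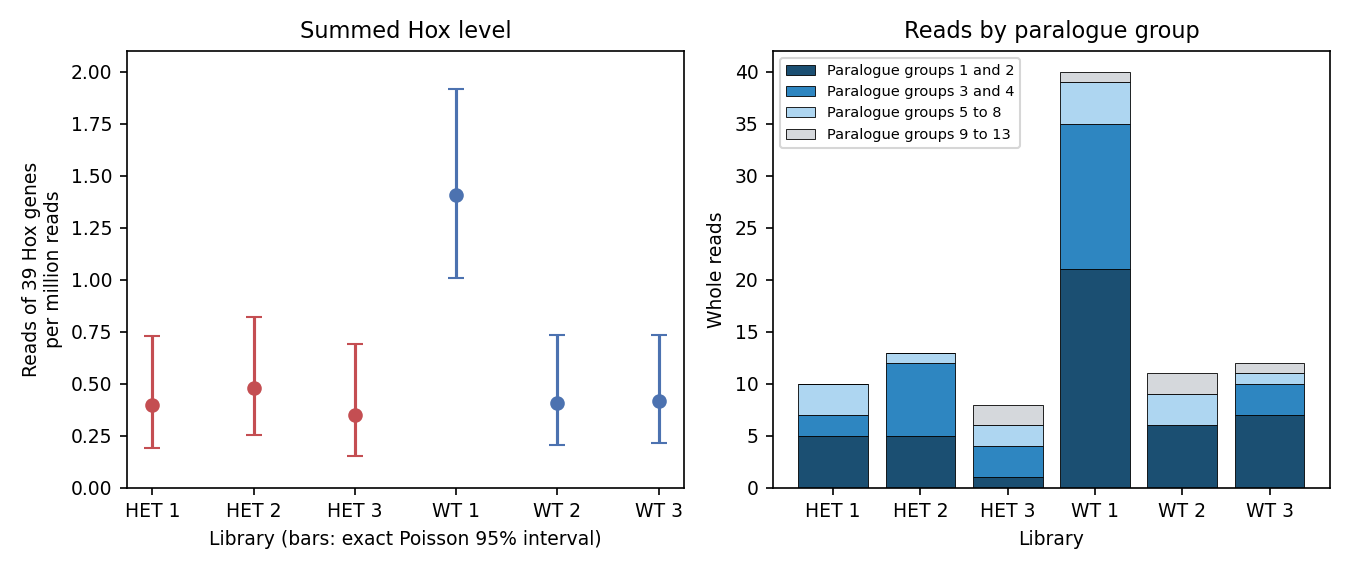
Left, summed Hox level in RPM in each library (points) with exact 95% Poisson intervals (bars), HET libraries left of WT; right, whole Hox reads per library stacked by paralogue group. WT 1 lies at 1.41 RPM against 0.350 to 0.480 in the other 5 libraries, and 35 of its 40 reads are from groups 1 to 4.

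The reads came mostly from the front end of the Hox order. Paralogue groups 1 to 4, which mark the hindbrain, make up 12 members, and 11 of these had reads. They held 78.7% of all Hox reads, with 7, 12 and 4 reads in HET and 35, 6 and 10 in WT. This share is not scaled to length, and Hoxa3, Hoxb3 and Hoxd3 span 44275, 24605 and 36516 bases. The 5 members of groups 1 and 2, with spans of 2163 to 3488 bases, held 47.9% of all Hox reads. The 11 members of groups 5 to 8, active in neck and chest segments, had 3, 1 and 2 reads in HET and 4, 3 and 1 in WT. The 16 members of groups 9 to 13, which act in the lower trunk, limbs and genital region, had 0, 0 and 2 reads in HET and 1, 2 and 1 in WT. The height of WT 1 lay in the front groups. It had 1.23 RPM of groups 1 to 4 (95% interval 0.858 to 1.71), 4.19 times the mean of the other 5 libraries, whose intervals reached at most 0.773. Hoxa3, Hoxa4, Hoxd3 and Hoxd4 overlap other members and had 4, 2, 2 and 2 of its reads, which may be counted more than once. In groups 1 and 2, where no member overlaps another, WT 1 had 0.739 RPM (0.458 to 1.13). That interval overlapped those of HET 1, WT 2 and WT 3 (up to 0.464, 0.486 and 0.504) but not those of HET 2 and HET 3. For groups 5 to 13 it had 0.176 RPM (0.0572 to 0.411), within the 0.0369 to 0.186 of the other libraries.

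**Figure D2:**
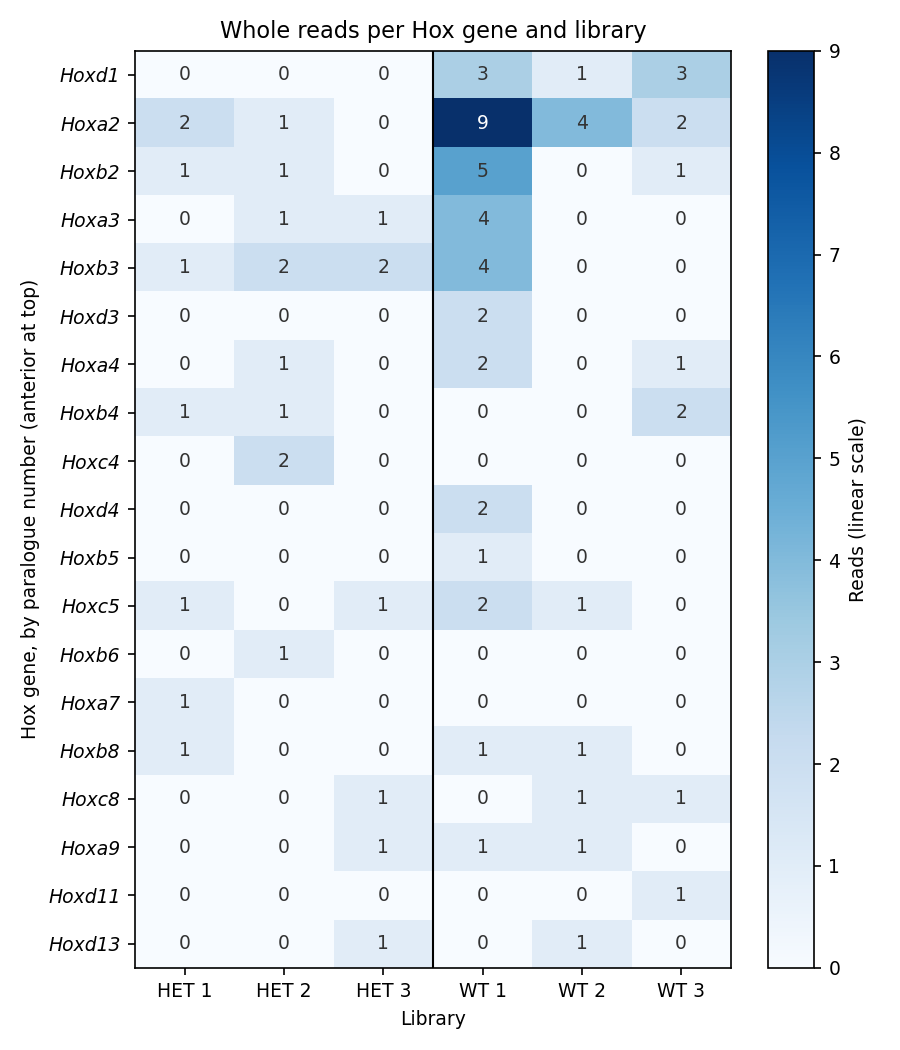
Whole reads of Hox members with reads in 1 to 5 libraries (rows, ordered by paralogue group) in each library (columns, HET left of WT). Most cells hold 0 or 1 read, and the highest values stand in the low-numbered groups in WT 1, led by 9 reads of Hoxa2.

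Of group 1, Hoxb1, which sets the identity of the hindbrain segment that forms the facial motor neurons, had no read in any library.

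Hoxd1 (chromosome 2, 74762980 to 74765142, plus strand), which in mouse shapes the wiring of pain-sensing neurons, had 0, 0 and 0 reads in HET and 3, 1 and 3 in WT. It was the sole member whose groups did not overlap. HET was lower without overlap in 1.96% of the 7285 genes of like level (mean above 0 and under 0.1 FPKM) and higher without overlap in 4.13%, against 1 and 0 of the 20 Hox genes with reads. Over the group, the 0 reads of HET allow up to 3 reads (0.0399 RPM), against 7 reads in WT (0.0835 RPM). That is a 2.09-fold difference with the 7 reads taken as exact. Counting error of the 7 reads is left out, so it is not a lower bound. In limma on log2(FPKM + 0.1) with no filter on low values, the difference was -0.46 (SE 0.10), with an unadjusted p of 0.0043 and an adjusted p of 0.96.

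Of group 2, Hoxa2 (chromosome 6, 52162417 to 52164831, minus strand) had the highest level of all members and was the sole member over 0.1 FPKM in a library. It is the Hox gene expressed farthest forward in the hindbrain and gives the second pharyngeal arch its identity. It had 0.0330, 0.0153 and 0 FPKM in HET and 0.131, 0.0616 and 0.0290 FPKM in WT, from 2, 1 and 0 reads and 9, 4 and 2 reads. HET 1 lay above WT 3, so the groups overlapped. The log2(FPKM + 0.1) difference was -0.55 (SE 0.23, limma adjusted p = 0.96 with no filter on low values). Hoxb2 (chromosome 11, 96350525 to 96354012, plus strand), which acts in the development of facial motor neurons, had 1, 1 and 0 reads in HET and 5, 0 and 1 in WT, again highest in WT 1.

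In group 3, Hoxa3 is needed for the thymus and parathyroid and, with Hoxb3 and Hoxd3, patterns the caudal hindbrain. Hoxa3 had 0, 1 and 1 reads in HET and 4, 0 and 0 in WT. Hoxb3 had 1, 2 and 2 reads in HET and 4, 0 and 0 in WT. Hoxd3 had 2 reads, both in WT 1. For Hoxa3, Hoxb3 and Hoxd3 alike, the WT reads stood in WT 1 alone. Of group 4, whose expression starts in the caudal medulla, Hoxb4 had 1, 1 and 0 reads in HET and 0, 0 and 2 in WT, and Hoxa4 had 0, 1 and 0 reads in HET and 2, 0 and 1 in WT. Hoxc4 had 2 reads, both in HET 2, and Hoxd4 had 2 reads, both in WT 1. The spans of Hoxd3 and Hoxd4 overlap, so these could be the same reads. The 28 members that overlap no other member had 25 reads in HET and 47 in WT.

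Of the other members, Hoxc5 had 1, 0 and 1 reads in HET and 2, 1 and 0 in WT. Its span overlaps Hoxc6, Hoxc8, Hoxc9 and Hoxc10. The remaining 8 members of groups 5 to 13 with reads had 1 to 3 in all 6 libraries together. They were Hoxb5, Hoxb6, Hoxa7, Hoxb8, Hoxc8, Hoxa9, Hoxd11 and Hoxd13. The members with no read, besides Hoxb1, were Hoxa5, which acts in the development of the lung and breathing circuits, Hoxa6, Hoxc6, Hoxb7, Hoxd8, Hoxb9, Hoxc9, Hoxd9, Hoxa10, Hoxc10, Hoxd10, Hoxa11, Hoxc11, Hoxc12, Hoxd12, Hoxa13, which is needed for the digits and genital tubercle, Hoxb13 and Hoxc13. By cluster, Hoxa had 14 reads in HET and 30 in WT, Hoxb 11 and 15, Hoxc 5 and 5, and Hoxd 1 and 13. The Hoxd reads of WT lay in all 3 WT libraries. Over the members with reads, 3 had them in HET alone, 5 in WT alone and 12 in both.

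In the test across all genes, limma on log2(FPKM + 0.1), the 12226 genes whose mean reached 0.1 FPKM included 0 Hox genes. Of these 12226 genes 3 passed an adjusted p of 0.05 (0.0245%), 1 higher in HET (Mir6392) and 2 lower (Snord8 and Mir666), and 315 had an unadjusted p under 0.05. The 3 that passed were named after their values were seen and rest on few reads each. Of all tested genes, 75.8% had a log2 difference above 0, and 50.1% after median-of-ratios scaling. Direction counts of the gene lists below are to be read beside these shares. With no filter on low values, 20 Hox genes entered the fit of 19511 genes. None passed, and 1 of the 20, Hoxd1, had an unadjusted p under 0.05, against 2 genes passed (0.0103%) and 3.15% with such a p among all genes.

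Markers of brainstem neurons were also low in FPKM, which is low for genes with long spans. The 17 genes summed to 0.616, 1.04 and 0.976 FPKM in HET and 1.03, 0.802 and 1.05 FPKM in WT, and the groups overlapped. Of these genes, Mnx1, a motor neuron factor, was at 0 in all libraries and only Tlx3 had a mean over 0.1 FPKM. By reads the markers stood above Hox. The 15 genes besides Tlx3 whose reads could be recovered had 256 reads in HET and 157 in WT, against 31 and 63 Hox reads. Chat, the enzyme that makes acetylcholine, had 1, 3 and 2 reads in HET and 0, 0 and 0 in WT. Prph, an intermediate filament of neurons that project out of the brain, had 7, 4 and 5 reads in HET and 1, 1 and 1 in WT.

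Calca, which encodes the peptide CGRP, had 11, 18 and 9 reads in HET and 13, 8 and 3 in WT. The serotonin enzyme gene Tph2 had 23, 14 and 13 reads in HET and 23, 18 and 27 in WT, with overlap. Without Tlx3, the 15 genes whose reads could be recovered had 2.83, 4.39 and 2.88 RPM in HET and 2.22, 1.68 and 1.71 in WT. For these 15 genes every HET library lay above every WT library, a separation that the sum with Tlx3 does not have. Tlx3, with 123 reads in HET and 201 in WT, belongs to the list as set, and leaving it out was not planned. How often other gene sets separate in this way was not counted. Within the groups, HET 2 and WT 1 were highest in the 15 genes, as they were in Hox reads. The part of brainstem tissue in the Hox reads was not tested. Tlx3, a factor of hindbrain sensory neurons, had 0.393, 0.689 and 0.647 FPKM in HET and 0.869, 0.695 and 0.961 FPKM in WT, with no overlap. Its log2 value was lower by 0.50 in HET (-0.50, SE 0.19), and it did not pass (limma adjusted p = 0.98).

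Other tissue next to the cerebellum varied far more than Hox. The choroid plexus lines the fourth ventricle between cerebellum and medulla, and its 15 markers summed to 6.30, 178 and 10.1 FPKM in HET and 310, 2.48 and 171 FPKM in WT. WT 1, with 40 Hox reads, was highest here too, followed by HET 2 and WT 3, with 13 and 12 Hox reads. The part of choroid plexus in the Hox reads was not tested. Ttr, the transthyretin gene, made up most of the sum in HET 2, WT 1 and WT 3, at 3.15, 156 and 6.43 FPKM in HET and 273, 0.566 and 150 FPKM in WT. Without it the sums were 3.15, 22.2 and 3.65 FPKM in HET and 37.6, 1.92 and 21.7 FPKM in WT, in the same order of libraries within each group. Enpp2 ranged over 2.34 to 12.5 FPKM in HET and 1.504 to 18.9 FPKM in WT. Sostdc1 had 0.0836 to 2.56 FPKM in HET and 0.0174 to 5.13 FPKM in WT. All 13 tested markers had a lower mean in HET, also after both other scalings tried, with a median log2 difference of -0.82 against 0.085 over all tested genes, and none passed.

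WT 1 was also the highest library for the summed 8 meningeal markers, with 8.94, 11.7 and 7.70 FPKM in HET and 13.6, 5.02 and 9.75 FPKM in WT. The 7 endothelial and pericyte markers summed to 14.1, 17.8 and 18.1 FPKM in HET and 22.1, 12.3 and 16.7 FPKM in WT. Otx2, a midbrain and forebrain factor that choroid plexus and some cerebellar granule cells also express, had 0.727, 0.792 and 0.815 FPKM in HET and 1.48, 0.485 and 1.04 FPKM in WT. Pitx3, a factor of midbrain dopamine neurons, was at 0 in every library. The part of these tissues in the Hox reads of WT 1 was not tested.

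**Figure D3:**
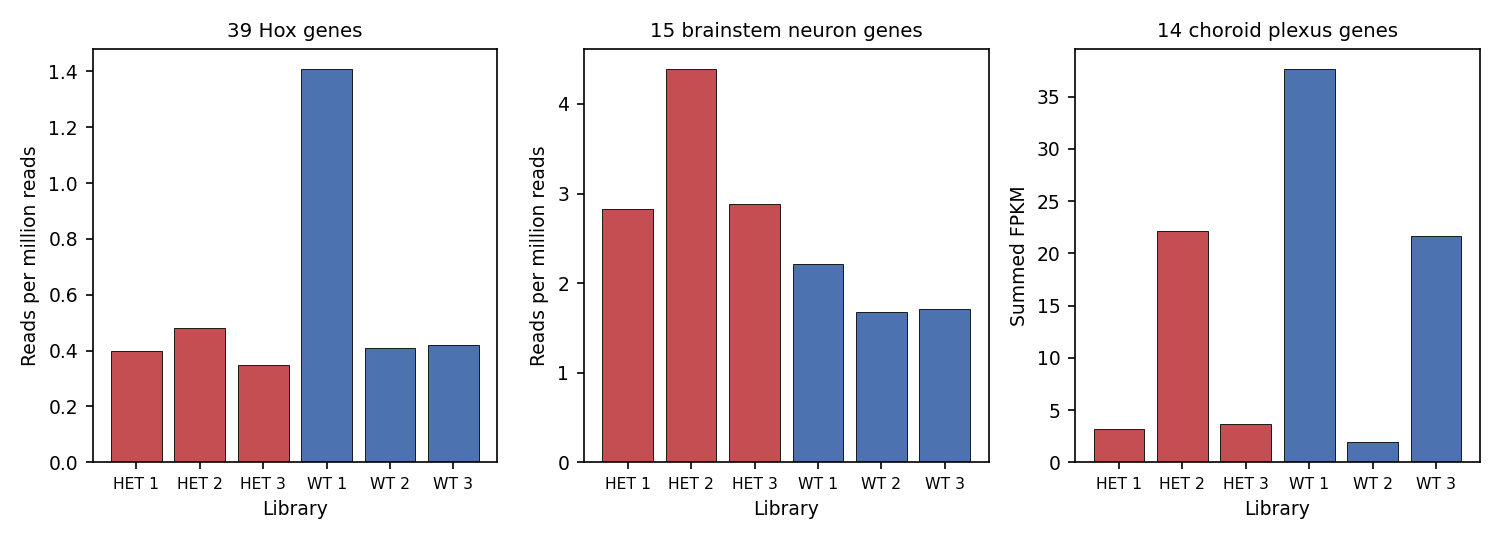
Bars per library, HET left of WT, for the 39 Hox genes (RPM), the 15 brainstem neuron genes without Tlx3 (RPM) and the choroid plexus genes without Ttr (summed FPKM); the vertical scales differ. WT 1 is highest for Hox and choroid plexus genes. The brainstem neuron genes without Tlx3 are higher in all 3 HET libraries than in any WT library. Leaving Tlx3 out was not planned, and the summed FPKM of the list with it overlaps between the groups. Within each group HET 2 and WT 1 are highest for the Hox and the brainstem neuron genes.

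The cerebellar label held in every library. The 15 cerebellar genes summed to 599, 601 and 620 FPKM in HET and 635, 509 and 576 FPKM in WT. Cbln3, a granule cell gene, stood at 178, 186 and 203 FPKM in HET and 178, 166 and 188 FPKM in WT, and Pcp2, a Purkinje cell gene, at 162, 162 and 167 FPKM in HET and 175, 122 and 143 FPKM in WT. Zic1, a factor of the granule cell lineage, stood at 80.2, 83.0 and 85.8 FPKM in HET and 102.7, 73.5 and 83.6 FPKM in WT. The groups overlapped for these 3 genes. En2, a homeobox gene of the midbrain and hindbrain border that marks the cerebellar territory, had 8.33, 9.30 and 8.64 FPKM in HET and 9.88, 7.87 and 8.75 FPKM in WT. Of the 14 tested, 9 were higher and 5 lower in HET, and 5 and 9 after median-of-ratios scaling, with none passed.

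Several genes that act with or on Hox genes were well detected in the same libraries. Hox proteins bind DNA together with Pbx and Meis cofactors. All 9 cofactor genes had reads in every library, and their summed level was 9.57, 9.57 and 8.76 FPKM in HET and 10.4, 8.23 and 9.23 FPKM in WT. Pbx2 led at 6.83 ± 0.40 FPKM in HET and 6.85 ± 0.81 FPKM in WT, followed by Meis3 at 1.33 ± 0.11 and 1.32 ± 0.14 FPKM and Pknox1 at 0.405 ± 0.041 and 0.389 ± 0.056 FPKM (SD, n = 3 each). All 6 tested had a higher mean in HET, with a median of 0.027, below the 0.085 of all tested genes. After median-of-ratios scaling 1 was higher and 5 were lower, and none passed.

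Of 15 upstream regulators, Cdx1, Cdx2, Cdx4, Cyp26c1, Fgf8 and Gbx2 were at 0 in every library. The first 3 activate trunk Hox genes in the embryo. Of the 5 tested, 3 were higher and 2 lower in HET with a median of 0.14, and none passed. Cyp26b1, which breaks down retinoic acid, an inducer of hindbrain Hox genes, had 0.614 ± 0.083 FPKM in HET and 0.523 ± 0.148 FPKM in WT (SD, n = 3 each). The retinoic acid receptor gene Rara had 0.468 ± 0.067 FPKM in HET and 0.413 ± 0.022 FPKM in WT (SD, n = 3 each).

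Polycomb proteins keep Hox clusters silent and trithorax proteins keep them active. All 19 genes of this list were tested, 11 higher and 8 lower in HET (7 and 12 after median-of-ratios scaling), with a median of 0.026 and none passed. Cbx8 had 6.37 ± 0.91 FPKM in HET and 5.85 ± 0.80 FPKM in WT, and Bmi1 5.86 ± 0.24 and 5.80 ± 0.90 FPKM (SD, n = 3 each). Pcgf2, a polycomb ring finger gene, had 0.396 ± 0.047 FPKM in HET and 0.520 ± 0.059 FPKM in WT (SD, n = 3 each), without overlap. The log2 value of the difference was -0.32, with an SE of 0.13 and a limma adjusted p of 0.98. Rnf2, an enzyme of polycomb complexes, had 1.237, 1.426 and 1.235 FPKM in HET and 1.226, 1.035 and 1.122 FPKM in WT. It was also without overlap but higher in HET, and did not pass (limma adjusted p = 0.98). Of the 19 tested genes these 2 did not overlap, 1 in each direction. The share over all tested genes was not counted, so this count is not read as a trait of the list. Noncoding genes of the Hox clusters had few reads as well. Of 18 in the files, 13 were at 0 in every library, and all 18 together had 4, 7 and 1 reads in HET and 1, 2 and 1 in WT. Hotairm1 had the highest mean, at 0, 0.0317 and 0.0125 FPKM in HET and 0.0101, 0 and 0.009996 FPKM in WT.

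The remaining markers were described for the tissue as a whole. Of 12 tested oligodendrocyte genes, 9 were higher and 3 lower in HET, against 75.8% higher over all tested genes. After median-of-ratios scaling they were again 9 and 3, against 50.1%. Their median was 0.25 (0.15 after median-of-ratios scaling and 0.11 after quantile normalization). Their sums were 202, 270 and 221 FPKM in HET and 242, 155 and 185 FPKM in WT. Cnp, a myelin enzyme gene, had 47.5 ± 7.8 FPKM in HET and 39.3 ± 8.4 FPKM in WT (SD, n = 3 each). Meningeal genes were higher in 7 of 8 cases (4 of 8 after median-of-ratios scaling, median 0.11) and endothelial and pericyte genes in 3 of 7 (median -0.015). Of midbrain and forebrain genes 2 were tested, 1 higher and 1 lower (median -0.087; both lower after median-of-ratios scaling). None of these passed.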

How the data were processed

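Total RNA of mouse cerebellum was sequenced with single-end reads from stranded libraries, and values were deposited as FPKM per gene by the authors, 1 library per file, made with TopHat2, Bowtie and Cufflinks on mm10, per the labels' protocols. The labels give the divisor as exon length, while the steps between values matched gene spans in GENCODE M21 or RefSeq. The annotation, the strand setting and whether intronic reads were counted are not given in these sources, so the read numbers are derived. For 17 of the 20 members with reads the length came from annotation, and for 3, Hoxb3 and Hoxd11 among them, the fewest whole reads that fit all libraries were taken. Overlapping genes may share reads.

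HET and WT were compared, from sample titles, on log2(FPKM + 0.1) with limma 3.58.1 in R 4.3.3, using an intensity trend and Benjamini-Hochberg adjustment, over genes whose mean reached 0.1 FPKM. Log2 differences are HET minus WT and understate changes of low genes. No count test was run on FPKM. The 40 values of HET 2 that read as dates left their genes out of tests; no Hox gene was among them. On simulated data (10 runs of 12226 genes) the share of changes recovered was 17.8% at 1.5-fold, 70.7% at 2-fold, and at 4-fold 96.2%. Changes were planted only in genes well above the 0.1 FPKM minimum. The shares therefore do not cover the Hox genes, whose highest mean was 0.045 FPKM. Read sums carry exact 95% Poisson intervals, which take each read as counted once. Tables came from pandas 2.3.3 and numpy 2.4.6 under Python 3.11.15, intervals from scipy 1.17.1 and plots from matplotlib 3.10.9.

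Members and gene lists were chosen with earlier results of these data known. The rule named Hox genes at 0.1 FPKM or more, on average or in a library (Hoxa2 alone); of the lists, genes past the test, else the 3 highest, and those at 0. Other Hox genes and markers were named after their values were seen. Some genes that the rule names are not reported here.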

Additional observations from a re-analysis of the deposited data

How the results depend on the processing

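Hox genes past the test numbered 0 under all 15 alternatives, most of which tested 0 of them. The difference in summed Hox FPKM was -0.123, and lay between -0.186 and -0.036 under 10 alternatives, nearest 0 without WT 1. The difference in summed Hox RPM (reads per 1000000) was -0.337, and -0.540 to -0.0054 under 9 alternatives, again nearest 0 without WT 1. The Hoxa2 log2 difference was -1.73 with a pseudocount of 0.01 and -0.079 with 1, and that of Hoxd1 -2.18 and -0.054. Of all genes, 3 passed (1 higher, 2 lower in HET). With a pseudocount of 1, median-of-ratios scaling or quantile normalization 1 passed, higher in HET. With pseudocount and minimum both at 1 FPKM 5 passed, and 27 without WT 2 and HET 2. Leaving out 1 library at a time gave 3 to 9, with 9 without WT 1. The replicate block gave 85 (24 higher, 61 lower), but same-numbered libraries did not deviate together (correlations of -0.21, -0.36 and 0.12), so numbers were not taken as pairs. The alternatives on read sums and on Hoxd1, and the one with pseudocount and minimum both at 1 FPKM, were chosen after seeing the data. At these depths a member with no read in a library may still hold up to 0.105 to 0.131 RPM there.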

Other observations

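Olfactory receptor genes, a family silent in most cells outside the nose, gave a level for genes that brain tissue should barely express (1104 genes, a set chosen after values were seen). Their mean was 0.00321, 0.00288 and 0.00359 FPKM in HET and 0.00282, 0.00506 and 0.00345 FPKM in WT. The 39 Hox members had a mean of 0.00325, 0.00376 and 0.00173 FPKM in HET and 0.0105, 0.00367 and 0.00401 FPKM in WT. Within its own library the Hox mean lay above that of the olfactory receptors in 4 of 6 libraries (HET 1, HET 2, WT 1 and WT 3). The share of genes above 0 was 17.9% to 23.1% of Hox genes in HET libraries and 20.5% to 33.3% in WT libraries. For olfactory receptor genes it was 2.99% to 3.71% in HET libraries and 3.62% to 4.44% in WT libraries. These shares are not scaled to gene length, and the spans of Hox and olfactory receptor genes were not compared. A difference in length and a difference in level are therefore not told apart by these shares. The FPKM means are divided by span, which makes them low for Hox genes with long introns. The 5 Hox genes of groups 1 and 2 had a mean of 0.0153, 0.0137 and 0.00296 FPKM in HET and 0.0603, 0.0183 and 0.0208 FPKM in WT, above the olfactory receptors in 5 of 6 libraries. The 16 genes of groups 9 to 13 had at most 0.00147 FPKM in HET and 0.00125 FPKM in WT.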
